A study of Tetranychus cinnabarinus with 8 samples.

Results

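The gene tetur09g04920 was followed through all 8 RNA-Seq libraries of the carmine spider mite, Tetranychus cinnabarinus. It is the 1 gene model that the study's lists of differentially expressed genes name apolipoprotein D. Those lists name few of the 15764 gene models listed in at least 1 library, so whether others are of this kind cannot be told. The gene model of tetur09g04920 is 582 bp long, and 0 other genes had identical values in the files. It was selected on its measured levels: the study lists it as higher in curcumin-treated mites at 24 h, and its values in the other groups were known as well. Its values at 24 h, and its comparisons that use the 24 h libraries, are therefore given as descriptions without a p-value. For this gene only the comparison of curcumin with solvent at 48 h was tested.

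Apolipoprotein D is a lipocalin, a small secreted protein whose barrel-shaped fold holds hydrophobic molecules such as fatty acids, sterols and pigments. In spite of its name it is not related to the large apolipoproteins that build lipoprotein particles. In mammals it binds arachidonic acid and progesterone, and in Drosophila the relatives Glial Lazarillo and Neural Lazarillo protect against oxidative stress and starvation. In the study's annotation tetur09g04920 was placed under response to chemical and developmental process, among other terms. Its role in mites was not measured here, and neither its sequence nor its position on the genome was used here.

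The mites were adults of a susceptible strain, labelled as 2-day old, that were sprayed with a solvent or with curcumin in the same solvent. Curcumin was given at 2.64 mg/mL, its LC50 for these mites. It is the yellow polyphenol of turmeric. Live females were collected 24 h or 48 h later and pooled, which gave 4 groups (solvent at 24 h, solvent at 48 h, curcumin at 24 h and curcumin at 48 h) with 2 biological replicates each. The mites at 48 h were older as well as longer past the spraying, so age and time after treatment cannot be told apart, and the curcumin groups hold only survivors. In whole animals, fewer cells of a type and less RNA per cell cannot be told apart either. The reads of T. cinnabarinus were mapped by the authors to the genome of its sister species T. urticae, from which the identifiers come.

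Between 8033325 and 8617973 reads were estimated on genes per library, and between 14296 and 14777 genes were listed. The curcumin libraries at 48 h stood apart in that 53 genes were listed in both of them and in no other library. Of the 12 genes that edgeR called higher with curcumin at 48 h at a false discovery rate (FDR) of 0.05, 9 were such genes, with gene models of 132 to 138 bp. They were also 11 of the 21 genes called higher with time in curcumin-treated mites. With curcumin at 48 h the listing went down to a length of 132 bp in replicate 1 and 131 bp in replicate 2. Every other library listed nothing shorter than 140 bp, so the called gene models of 132 to 138 bp were taken as 0 there. Whether these calls reflect expression or the lengths that were listed was not tested. The called short genes enter the shares of all genes given beside the results, while tetur09g04920, with a longer gene model, had 3746 or more estimated reads in every library. Vitellogenin 1 (tetur39g00730) was taken here as a marker of adult females, a use that the study does not make of it. It was listed in all 8 libraries at an RPKM between 1.59 and 23.9. The library medians were 6.16 to 6.75, so it stood below the median in some libraries. Its listing alone does not establish the stage of the mites. Levels are given as RPKM, that is, reads scaled to the length of the gene model and to the mapped reads of the library.

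The apolipoprotein D gene was an abundant transcript in every library. In solvent-treated mites at 24 h, 3746 and 4554 reads were estimated on it, and the RPKM was 517.2 in replicate 1 and 617.7 in replicate 2. In curcumin-treated mites at 24 h, there were 8852 and 9819 reads and the RPKM was 1253 and 1423. At 48 h, the solvent libraries held 19192 and 17386 reads at an RPKM of 2886 and 2522. The curcumin libraries at 48 h held 16836 and 17247 reads at an RPKM of 2373 and 2369. The solvent libraries at 24 h were thus the lowest, those of curcumin at 24 h came next, and the 4 libraries at 48 h were the highest. The lowest and the highest library differed by 5.58-fold.

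**Figure D1:**
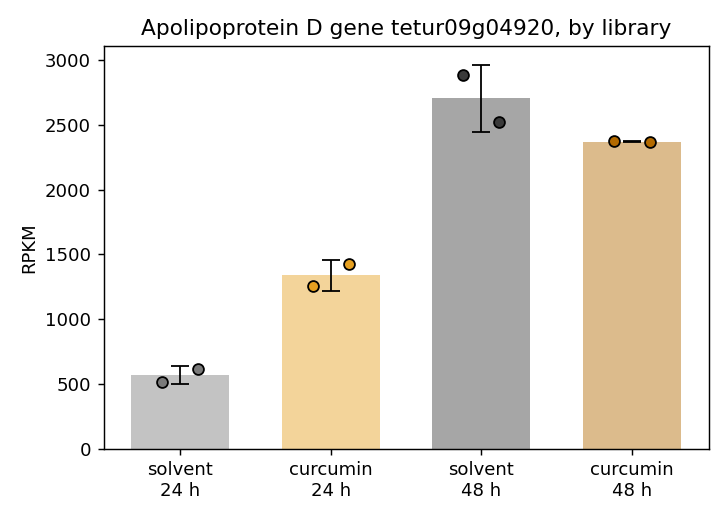
RPKM of tetur09g04920 in each library (points), with the mean (bars) and the SD (error bars, n = 2) of each group. The solvent libraries at 24 h sit at 517.2 and 617.7, the curcumin libraries at 24 h at 1253 and 1423, and all 4 libraries at 48 h between 2369 and 2886.

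As a group mean, the RPKM was 567.4 ± 71.0 (SD, n = 2) in solvent and 1338 ± 121 (SD, n = 2) in curcumin at 24 h. It was 2704 ± 257 (SD, n = 2) in solvent and 2371 ± 2.81 (SD, n = 2) in curcumin at 48 h. Replicates of a group differed by 1.00-fold to 1.19-fold. The pooled SD between replicates was 0.13 on the log2 scale. In the order of the levels, the mean RPKM of neighbouring groups differed by 2.36-fold (solvent and curcumin at 24 h), 1.77-fold (curcumin at 24 h and 48 h) and 1.14-fold (curcumin and solvent at 48 h).

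The gene took 0.0441% of the estimated reads in replicate 1 (95% exact Clopper-Pearson interval 0.0427% to 0.0455%) and 0.0539% in replicate 2 (0.0523% to 0.0555%) of the solvent group at 24 h. In the curcumin group at 24 h these shares were 0.104% (0.102% to 0.106%) and 0.118% (0.116% to 0.120%). In the solvent group at 48 h they came to 0.239% (0.236% to 0.242%) and 0.216% (0.213% to 0.220%). In the curcumin group at 48 h they were 0.204% (0.201% to 0.207%) and 0.200% (0.197% to 0.203%). The intervals cover counting error only. Those of the 2 replicates were apart in every group but curcumin at 48 h, so that counting error was smaller than the spread between replicates in the other 3.

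Among the genes listed in each library, tetur09g04920 took rank 141 and 121 by RPKM in solvent-treated mites at 24 h, where rank 1 is the highest. With curcumin at 24 h it took rank 56 and 47. At 48 h it took rank 23 and 20 in solvent-treated mites and rank 27 and 26 in curcumin-treated mites. It was within the top 1% of the listed genes everywhere, from the top 0.965% in the first solvent library at 24 h to the top 0.137% in the second solvent library at 48 h. Its RPKM was 76.9 to 92.8 times the library's median in solvent at 24 h, 190 and 215 times in curcumin at 24 h, and 360 to 468 times at 48 h. By the estimated reads, which favour long genes, it stood lower, at rank 265 and 210 in solvent and 83 and 71 in curcumin at 24 h, and at ranks 26 to 34 at 48 h.

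**Figure D2:**
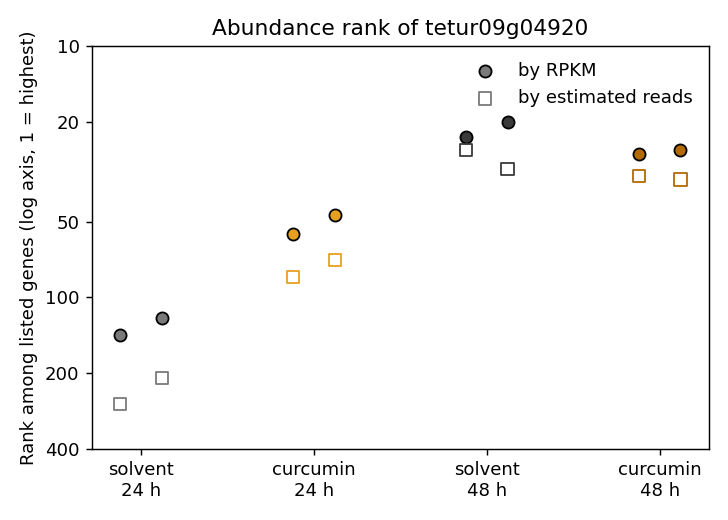
Abundance rank of tetur09g04920 among the genes listed in each library, on a log axis with the highest ranks at the top, by RPKM (filled circles) and by estimated reads (open squares). By RPKM the gene moves from ranks 141 and 121 in solvent at 24 h through 56 and 47 in curcumin at 24 h to ranks 20 to 27 at 48 h.

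The ranks above can also be set beside those of the other top genes. Of the 30 genes of highest RPKM in a library, 25 were shared by all 4 libraries at 48 h, and 24 of these were also among the top 30 of at least 1 library at 24 h. The apolipoprotein D gene was the 1 gene of the 25 that was in the top 30 of no library at 24 h. The limit of 30 was chosen after the ranks were seen, so the place of tetur09g04920 in these sets follows from them. Over all 8 libraries it was rank 34, with a mean RPKM of 1745, between tetur43g00020 (mean RPKM 1769) and tetur18g03030 (mean RPKM 1698). These neighbours in abundance varied less from library to library, from 1560 to 2115 RPKM and from 1294 to 1968 RPKM.

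Of the 4 comparisons, the largest difference in tetur09g04920 was that with time in solvent-treated mites. The mean RPKM at 48 h was 4.77 times that at 24 h, and the ratio of any library at 48 h to any library at 24 h was between 4.08 and 5.58. In the fit of all 8 libraries by edgeR on the rounded estimated reads, the gene stood 2.31 higher at 48 h on the log2 scale (standard error 0.17). The libraries of the 2 time points did not overlap, with those at 48 h higher, as they were for 15.9% of the 12227 genes tested. Of the genes tested, 49 had a log2 fold change of at least 2 in this comparison, and tetur09g04920 stood 36th from the top. Of the 148 genes whose RPKM averaged 500 or more, a limit chosen after the values were seen, it had the highest log2 fold change and was the 1 gene past 1, with tetur01g13320 next at 0.98.

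In curcumin-treated mites the gene started from a higher level at 24 h. The mean RPKM at 48 h was 1.77 times that at 24 h, and the ratios between single libraries were between 1.66 and 1.89. On the log2 scale the difference was 0.88 (standard error 0.17). Here, too, the libraries at 48 h were above those at 24 h without overlap, as for 18.3% of the genes tested, and tetur09g04920 stood 383rd from the top by log2 fold change. Among the same 148 abundant genes it was the 4th highest. In RPKM the group means lay 2136 apart in solvent-treated mites and 1033 apart in curcumin-treated mites.

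**Figure D3:**
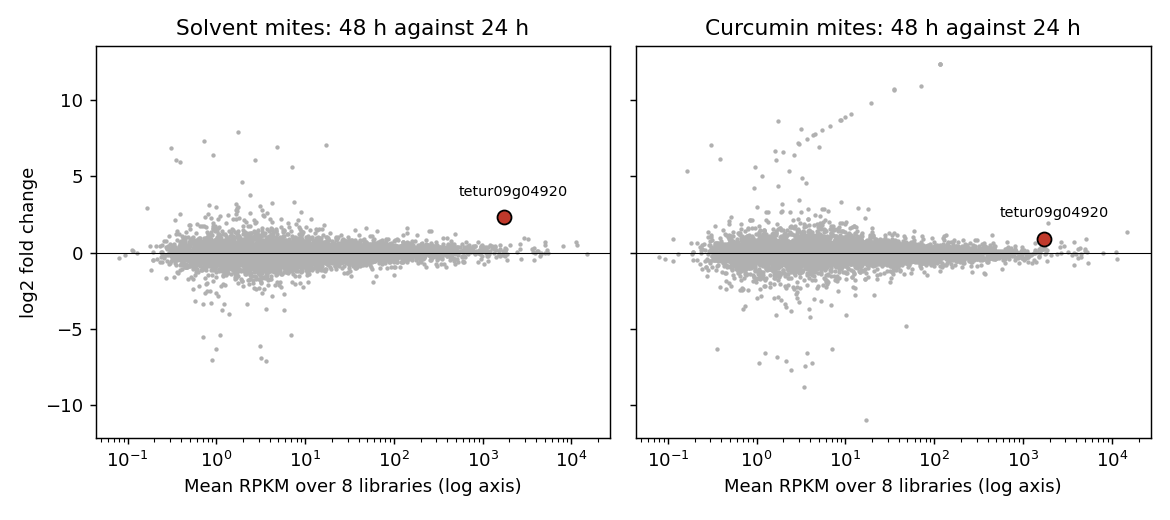
Log2 fold change of 48 h against 24 h (y axis) plotted against the mean RPKM over the 8 libraries (x axis, log scale) for the 12227 genes tested (grey points), in solvent-treated mites (left) and curcumin-treated mites (right). tetur09g04920 (red) is at 2.31 in solvent, above the other abundant genes, and at 0.88 in curcumin.

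At 24 h the level in curcumin-treated mites was 2.36 times that in solvent-treated mites, with single-library ratios between 2.03 and 2.75. On the log2 scale it was 1.25 higher (standard error 0.17). Since the study chose the gene from this comparison, the value is a description. Both curcumin libraries were above both solvent libraries, as for 20.2% of the genes tested, and the gene stood 91st from the top by log2 fold change. The quasi-likelihood test of edgeR called 0 of the 12227 genes (0%) at an FDR of 0.05 in this comparison, while 903 had an unadjusted p under 0.05. DESeq2 called 31 genes and limma on log2(RPKM + 1) called 1 gene at the same FDR. The log2 fold change of tetur09g04920 was 1.26 by DESeq2 and 1.24 by limma.

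At 48 h the levels with and without curcumin differed by no more than the test could resolve. The mean RPKM in curcumin-treated mites was 0.877 times that in solvent-treated mites, with single-library ratios between 0.821 and 0.941. The log2 fold change came to -0.18 (standard error 0.16), with an adjusted p = 0.853 by the quasi-likelihood test of edgeR (Benjamini-Hochberg, over all genes tested). Its 95% interval ran from -0.55 to 0.19, that is, from 0.682-fold to 1.14-fold. The p does not show that the levels were equal. In RPKM both curcumin libraries were below both solvent libraries, as for 17.3% of the genes tested. The test scaled the reads by library size and by TMM, a factor that evens out the bulk of the genes. On that scale (CPM) the groups overlapped, at 2563 and 2095 in solvent and 2105 and 1998 in curcumin. The log2 fold change was -0.03 with replicate 1 of solvent at 48 h left out and -0.32 with replicate 2 of it left out. Over 16 alternative settings the adjusted p was between 0.672 and 1. For comparison, edgeR called 22 genes (0.18%) at 48 h at an FDR of 0.05, 12 higher and 10 lower. Scaled by library size alone, it called 17 higher and 8 lower.

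The effect of curcumin at 48 h less that at 24 h was -1.43 on the log2 scale, with a standard error of 0.23. All 4 ratios of a curcumin to a solvent library were above 1 at 24 h and all 4 were below 1 at 48 h in RPKM. These ratios share libraries and state only that the groups did not overlap, as for 20.2% and 17.3% of the genes tested. The share of genes with both was not counted. On the TMM scale of the test the groups at 48 h overlapped. As the difference between the effects rests in part on the 24 h libraries from which the gene was chosen, it was not tested. The 4 comparisons share libraries with each other, so their values are set side by side and not as independent results.

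**Figure D4:**
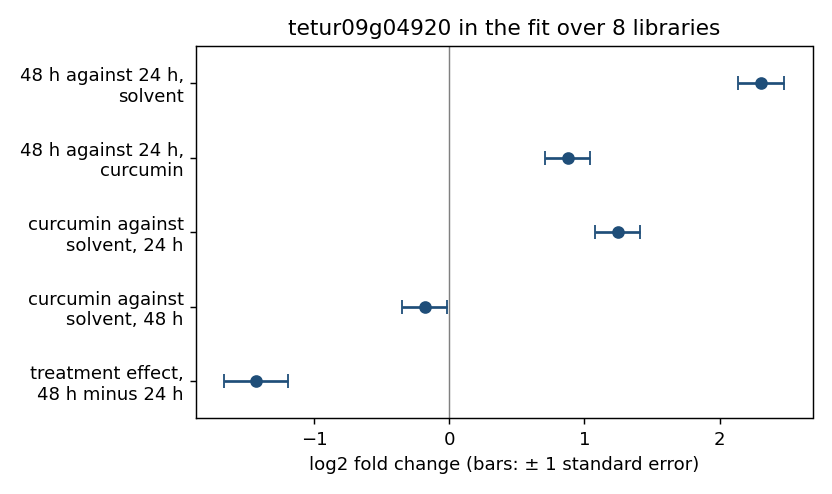
Log2 fold changes of tetur09g04920 (points) with 1 standard error on either side (bars) in the fit over 8 libraries. The values are 2.31 and 0.88 for 48 h against 24 h in solvent and curcumin, 1.25 and -0.18 for curcumin against solvent at 24 h and 48 h, and -1.43 for the difference between the last 2.

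The order of the groups was counted over all genes tested. Solvent at 24 h below curcumin at 24 h, and curcumin at 24 h below every library at 48 h, held for 65 of the 12227 genes tested (0.532%). With the further step of curcumin at 48 h below solvent at 48 h it held for 9 genes (0.0736%). These orders are in RPKM, and on the TMM scale of the test the groups of tetur09g04920 at 48 h overlapped. Of the 65 genes, 17 had a mean RPKM in solvent at 48 h of at least 2 times that in solvent at 24 h. These orders were chosen after the levels of tetur09g04920 were seen. A strict order of separated groups can be expected to hold for few genes, so the small shares are a description and mark nothing particular. The other 16 of the 17 genes had mean RPKM between 0.744 and 485, against 1745 for tetur09g04920. Their log2 fold changes with time in solvent-treated mites ran from 1.09 to 2.91, and their log2 fold changes with curcumin at 24 h from 0.14 to 1.35.

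The gene whose pattern was most like it, by Pearson's r of log2(RPKM + 1) over the 8 libraries, was tetur09g04730, with r = 0.98 among 12226 other genes. This gene model has the same scaffold number in its identifier and nearly the same length, 585 bp against 582 bp, but was far less abundant. Its RPKM was 16.5 and 18.0 in solvent and 28.0 and 33.1 in curcumin at 24 h. At 48 h it was 48.5 and 43.1 in solvent and 46.0 and 56.6 in curcumin. The rise from solvent to curcumin at 24 h and the rise from there to 48 h thus recur. The last step, seen in RPKM, does not: at 48 h the groups overlap, and the mean was higher in curcumin (51.3) than in solvent (45.8). At 48 h the difference was resolved in neither gene, so no difference between the 2 genes is shown there. The log2 fold change was -0.18 (standard error 0.16) in tetur09g04920 and 0.17 (standard error 0.15) in tetur09g04730. As tetur09g04730 was picked for its likeness in these libraries, the shared steps are a description. Whether reads were shared between similar gene models cannot be told from these files, and the files give no name for tetur09g04730.

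The next were tetur338g00010 (r = 0.98), tetur05g07030 (r = 0.96), tetur08g04340 (r = 0.96) and tetur39g00700 (r = 0.96). Their log2 fold changes with time in solvent-treated mites were smaller, at 0.85, 0.98, 0.21 and 0.22. Of these, tetur39g00700 matched the apolipoprotein D gene in mean abundance, with an RPKM from 1707 to 1965. At the other end, tetur05g07030 had an RPKM from 0.869 to 2.18 and at most 41.4 estimated reads in a library. By Spearman's rho on RPKM tetur05g07030 was the closest of the 5, with rho = 1 against 0.83 for tetur09g04730, so the closest gene depends on the measure. An r above 0.9 was reached by 31 genes (0.254%). The opposite pattern, highest in solvent at 24 h, was led by tetur05g01700 (r = -0.97), with an RPKM of 10.9 ± 0.149 (SD, n = 2) in solvent at 24 h and 5.83 ± 0.732 (SD, n = 2) in solvent at 48 h. It was followed by tetur24g00250 (r = -0.96) and tetur09g02500 (r = -0.95). The libraries share groups of 2 replicates, so these values of r describe likeness in level and are given without a p.

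**Figure D5:**
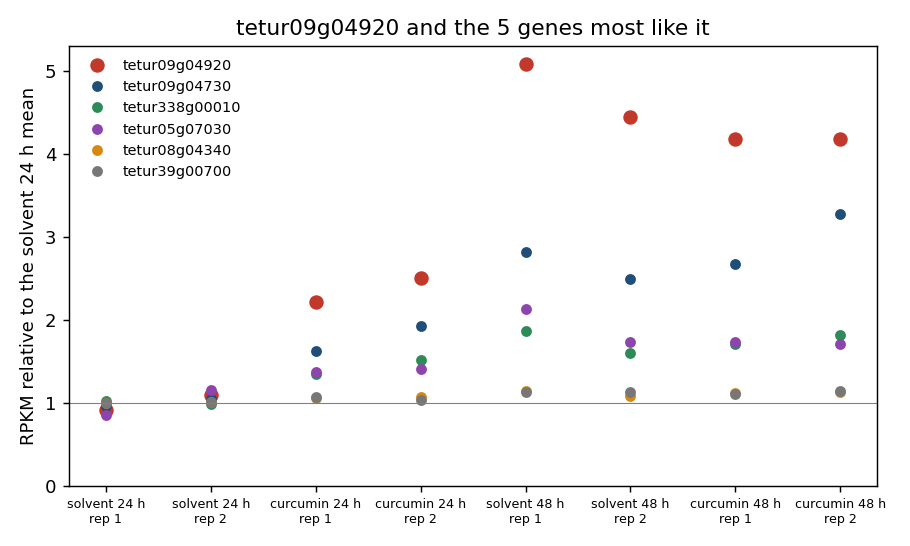
RPKM of tetur09g04920 and the 5 genes most like it in each library, divided by each gene's own mean in solvent at 24 h (grey line at 1). tetur09g04920 (red) reaches the highest relative values, and tetur09g04730 (blue) the next at 48 h.

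Gene models numbered close to it on the same scaffold were at low levels. Of those with identifiers from tetur09g04870 to tetur09g04970, 6 others were listed, with lengths between 168 and 332 bp and an RPKM of at most 21.6 in any library. Only 2 of the 6 passed edgeR's filter on low counts, and 0 of these passed an FDR of 0.05 in any of the 4 comparisons. Over all genes tested the shares called were 0%, 0.18%, 0.188% and 0.425%, so a count of 0 of 2 is no different from the background. The study's lists hold 2 genes near it in number. tetur09g04900, listed as lower at 24 h, had an RPKM of 21.6 and 12.5 in solvent and 8.13 and 4.97 in curcumin at 24 h. tetur09g04860, listed as higher at 48 h, had an RPKM of 25.2 and 18.6 in solvent and 59.1 and 37.8 in curcumin at 48 h. In tetur09g04900 the order at 24 h was the opposite of that in the apolipoprotein D gene. In tetur09g04860 the order in RPKM at 48 h was the opposite as well. The difference in the apolipoprotein D gene at 48 h was not resolved, however (log2 fold change -0.18, standard error 0.16).

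Of the genes that the study names, 5 were grouped here as lipid-related, a grouping that the study does not make. Of these 5, 4 passed the filter on low counts. In solvent-treated mites 1 was higher at 48 h than at 24 h and 0 were lower at an FDR of 0.05, against 0.172% and 0.0164% of all genes tested (21 and 2 genes, or 13 and 3 when scaled by library size alone). With curcumin 1 was lower at 48 h and 0 were higher, against 0.0818% and 0.0981%. At 24 h and with time in curcumin-treated mites edgeR called 0 of the 4, against 0% and 0.425% of all genes tested. The median log2 fold change of the 4 was 0.52 with time in solvent and -0.84 with time in curcumin, and 0.92 at 24 h and -0.72 at 48 h for curcumin against solvent. Over all genes tested the 4 medians were between -0.01 and 0.00. As the study chose these genes on the same libraries, neither the counts nor the adjusted p of single genes below are independent evidence.

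Both calls were vitellogenin 1 (tetur39g00730), a yolk protein precursor that carries lipid to the eggs. Its RPKM was 2.02 and 1.59 in solvent and 6.21 and 9.66 in curcumin at 24 h, and 23.9 and 10.9 in solvent and 2.69 and 2.69 in curcumin at 48 h. It shared the low level in solvent at 24 h with the apolipoprotein D gene but was low again in curcumin at 48 h. The study selected vitellogenin 1 at 24 h and at 48 h from the same libraries, so its adjusted p is a description. The adjusted p by edgeR was 0.0199 with time in solvent (log2 fold change 3.32, standard error 0.42) and 0.0469 for curcumin at 48 h (log2 fold change -2.71, standard error 0.40). The first was past an FDR of 0.05 in 10 of 16 alternatives, and the second in 3 of 16. With the replicate number as a block the second had an adjusted p of 0.0558 by edgeR (log2 fold change -2.66). For the second, the adjusted p by edgeR was 0.0805 when replicate 1 of solvent at 48 h was left out, and 0.278 and 0.216 for replicates 1 and 2 of curcumin at 48 h. Leaving out any 1 library at 24 h gave between 0.0742 and 0.0906. For the first it was 0.196 and 0.25 when replicates 1 and 2 of solvent at 24 h were left out.

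Glycerol-3-phosphate dehydrogenase (tetur23g01300), an enzyme that links glycolysis to the glycerol backbone of lipids, had an RPKM of 4.52 and 2.87 in solvent and 19.0 and 15.4 in curcumin at 24 h. At 48 h its replicates were far apart, at 16.3 and 3.64 in solvent and 21.6 and 7.86 in curcumin. The Der f 2 allergen gene (tetur140g00020), named after a lipid-binding protein of house dust mites, was at 11.7 ± 0.910 RPKM in solvent and 2.86 ± 0.966 RPKM in curcumin at 48 h (SD, n = 2; adjusted p = 0.121 by edgeR). At 24 h it was at 16.5 ± 1.74 RPKM in solvent and 9.89 ± 3.75 RPKM in curcumin (SD, n = 2). A member of the phospholipase C family (tetur05g03410), an enzyme that cleaves membrane phospholipids for signalling, was at 13.4 ± 0.618 RPKM in solvent and 10.9 ± 1.28 RPKM in curcumin at 24 h (SD, n = 2). At 48 h it was at 6.62 ± 2.30 RPKM in solvent and 18.4 ± 5.40 RPKM in curcumin (SD, n = 2), a log2 fold change of 1.51 (adjusted p = 0.207 by edgeR). Phospholipase A2 (tetur05g07400), which releases fatty acids from phospholipids, reached at most 19.3 estimated reads in a library and was not tested.

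The study lists 3 other genes beside tetur09g04920 under response to chemical or developmental process. They are tetur01g05790, which has no description, the ABC transporter tetur19g01690, a membrane pump, and the glycerol-3-phosphate dehydrogenase above. All 3 were tested, and edgeR called 0 of them at an FDR of 0.05 in each of the 4 comparisons, where 0%, 0.18%, 0.188% and 0.425% of all genes were called. A count of 0 of 3 is at that background. The RPKM of tetur01g05790 was 21.1 and 39.8 in solvent and 13.8 and 15.7 in curcumin at 24 h, opposite in direction to the apolipoprotein D gene, and 15.8 ± 6.87 in solvent and 26.0 ± 5.27 in curcumin at 48 h (SD, n = 2). The ABC transporter was at 12.1 and 10.2 RPKM in solvent and 1.75 and 3.27 RPKM in curcumin at 24 h, and at 7.86 and 8.70 RPKM in solvent and 3.15 and 7.99 RPKM in curcumin at 48 h.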

How the data were processed

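RNA-Seq was run by the authors on an Ion Proton instrument with single-end reads, which after removal of low-quality and adaptor sequence were aligned with T-Map against the genome of T. urticae. The study states that duplicate sequences were also removed. The authors deposited, for every gene and library, an expected count of reads (unscaled, with decimals) and an RPKM value that they computed from exon reads, exon length and mapped reads. How these reads were estimated, and on which version of the gene models, the sources do not state. Only values above 0 are listed, and a missing gene was taken as 0.

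After rounding, the expected counts of the 12227 genes kept by filterByExpr were scaled by TMM and fitted for the 4 groups together by the quasi-likelihood method of edgeR (version 4.0.16, robust; R 4.3.3), with Benjamini-Hochberg adjustment. Standard errors were worked out from the F statistic, and the interval at 48 h from the t distribution with the 9.44 degrees of freedom of the gene in edgeR. Alternatives were DESeq2 1.42.0, library size scaling, no filter, the 4 libraries of a contrast, a replicate block, limma 3.58.1 on log2(RPKM + 1) and log2(RPKM + 0.1) with a mean RPKM of at least 0.5 and on log2(RPKM + 1) without that limit, and each library left out. Each tool was tested on simulated data. Other values were computed with Python 3.11.15 (pandas 2.3.3, numpy 2.4.6, scipy 1.17.1).

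The gene, the lists and the tests were chosen with earlier results of these data known. The genes named are tetur09g04920, gene models near it in number, lipid-related genes and genes under the same terms in the study's lists, its neighbours in mean RPKM, and the 5 most and 3 least like it by Pearson's r. Others were chosen after their values were seen.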

Additional observations from a re-analysis of the deposited data

Results flagged for a closer look

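The difference between curcumin and solvent in the apolipoprotein D gene tetur09g04920 went one way at 24 h and the other way at 48 h. Both curcumin libraries were above both solvent libraries at 24 h, and both were below both solvent libraries at 48 h in RPKM, as for 20.2% and 17.3% of all genes tested. On the TMM scale of the test the groups at 48 h overlapped, at 2563 and 2095 in solvent and 2105 and 1998 in curcumin. The effect at 48 h less the effect at 24 h was -1.43 on the log2 scale (standard error 0.23). The difference was not tested, since the gene was chosen from the 24 h comparison, and the values at 48 h alone were not past the threshold (adjusted p = 0.853 by edgeR, log2 fold change -0.18).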

How the results depend on the processing

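The log2 fold change of tetur09g04920 kept its direction under all alternatives, 16 for each of the 4 comparisons and 15 for the difference between the effects of curcumin. When single libraries were left out, its range was from 1.12 to 1.39 for curcumin at 24 h, from -0.32 to -0.03 for curcumin at 48 h, from 2.16 to 2.45 with time in solvent, from 0.79 to 0.96 with time in curcumin, and from -1.57 to -1.28 for the difference. The side of the threshold at 48 h did not change.

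The counts of genes called at an FDR of 0.05 depended on the setting, and the cause was not tested. At 24 h edgeR called 0, DESeq2 31, edgeR with only the 4 libraries 8 and limma on log2(RPKM + 1) 1, with 0 to 3 when 1 library was left out (3 without curcumin replicate 1 and 1 without solvent replicate 2 at 24 h). At 48 h edgeR called 22, DESeq2 66, edgeR without the filter 10 and limma 35, with 5 to 18 when 1 library was left out (5 without solvent replicate 2, 6 and 8 without curcumin replicates 1 and 2 at 48 h, and 14 without curcumin replicate 1 or 2 at 24 h). With time in solvent edgeR called 23, DESeq2 104, edgeR without the filter 13, with only the 4 libraries 8 and limma 1, with 0 to 29 when 1 library was left out (0 and 2 without solvent replicates 1 and 2 at 24 h, 8 without solvent replicate 1 at 48 h, and 10 without curcumin replicate 1 or 2 at 24 h). With time in curcumin edgeR called 52, DESeq2 185, edgeR without the filter 22 and limma 33, with 0 to 64 when 1 library was left out (4 and 0 without curcumin replicates 1 and 2 at 24 h, 9 and 11 without those at 48 h, and 23 without either solvent library at 24 h). Where a group was left with 1 library, it was assumed to vary like the others.

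By estimated reads the ranks were 265 and 210 in solvent and 83 and 71 in curcumin at 24 h, and 26 and 31 in solvent and 33 and 34 in curcumin at 48 h. Of the 5 genes most like it, 1 was among the top 5 by Spearman's rho and 5 were with a pseudocount of 0.1.

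With the replicate number as a replicate block, the log2 fold changes were 1.25, -0.18, 2.31, 0.88 and -1.43, and edgeR called 0, 19, 25 and 72 genes in the 4 comparisons. The correlation across genes of the differences between replicates was between -0.07 and 0.20 over the 6 pairs of groups and over 0.1 in 3, and the labels do not say that a number marks a shared batch, so the numbers were not taken to pair the libraries. Which of depth, replicate number and the estimation of reads limits the precision was not tested.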
